A study of Mus musculus with 18 samples.

Results

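The circular RNAs of 3 transporter genes were followed in mouse liver: Slco1b2, Abcc2 and Abca1. Every entry of the deposited table whose start and end both lay inside one of these loci on GRCm38 was taken, which gave 7 of the 434 circular RNAs listed, 2 in Slco1b2, 2 in Abcc2 and 3 in Abca1. The rule for a gene's circles used position and no measured value, while the 3 genes themselves were picked with earlier results of these data known. All 7 were tested.

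Livers came from male C57BL/6 mice that entered the study at 6 weeks of age, and 6 per group were sequenced in week 22. Control mice were given double distilled water by mouth every day and olive oil into the abdomen 2 times a week. CCl4 mice were given the same water and, in place of the oil, injections of CCl4 (carbon tetrachloride), which damages the liver and was used here to set up a model of liver cancer. CCl4+PZH mice were given CCl4 and, by mouth each day, PZH, the Chinese herbal preparation Pien Tze Huang; their labels read PTH, which was taken as the same agent. Each library is 1 mouse. RNA depleted of ribosomal RNA was sequenced from both ends with reads of 150 bp.

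A circular RNA forms when the spliceosome splices a downstream exon to an exon that lies before it in the same pre-mRNA. The loop has no free ends, resists exonucleases and is recognised by reads that cross the back-splice junction. Hepatocytes move bile acids, bilirubin, drugs and cholesterol between blood and bile through membrane carriers. Slco1b2 encodes OATP1B2, the carrier on the blood-facing membrane that takes up bilirubin, bile acids and many drugs. Abcc2 encodes MRP2, an ATP-driven pump on the bile canaliculus that exports conjugated bilirubin and glutathione conjugates. Abca1 encodes the ATP-driven transporter that hands cholesterol and phospholipid to apolipoprotein A-I, the first step in making HDL, and it is found in many cell types besides hepatocytes. Host mRNA was not analysed here, and its level can differ from that of the circle. In whole liver, fewer cells of a type and less RNA per cell cannot be told apart.

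The Slco1b2 locus spans 57195 bp of chromosome 6 (141629452 to 141686646, plus strand). Its circular RNAs run from 141648489 to 141657606 (9118 bp of genome) and from 141663578 to 141672313 (8736 bp), and they share no base. The first begins 19037 bases and the second 34126 bases after the 5′ end of the gene. The Abcc2 locus spans 56025 bp of chromosome 19 (43782308 to 43838332, plus strand) and holds circular RNAs at 43798407 to 43799145 (739 bp) and at 43810471 to 43814814 (4344 bp). The Abca1 locus spans 129200 bp of chromosome 4 (53030789 to 53159988, minus strand). Its circular RNAs lie at 53107006 to 53109285 (2280 bp), 53127597 to 53133015 (5419 bp) and 53107006 to 53133015 (26010 bp). Spans are genomic distances between the joined ends and include introns, so they are not lengths of RNA. Exons were not used here, and no other annotated gene overlaps any of the 3 loci.

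**Figure D1:**
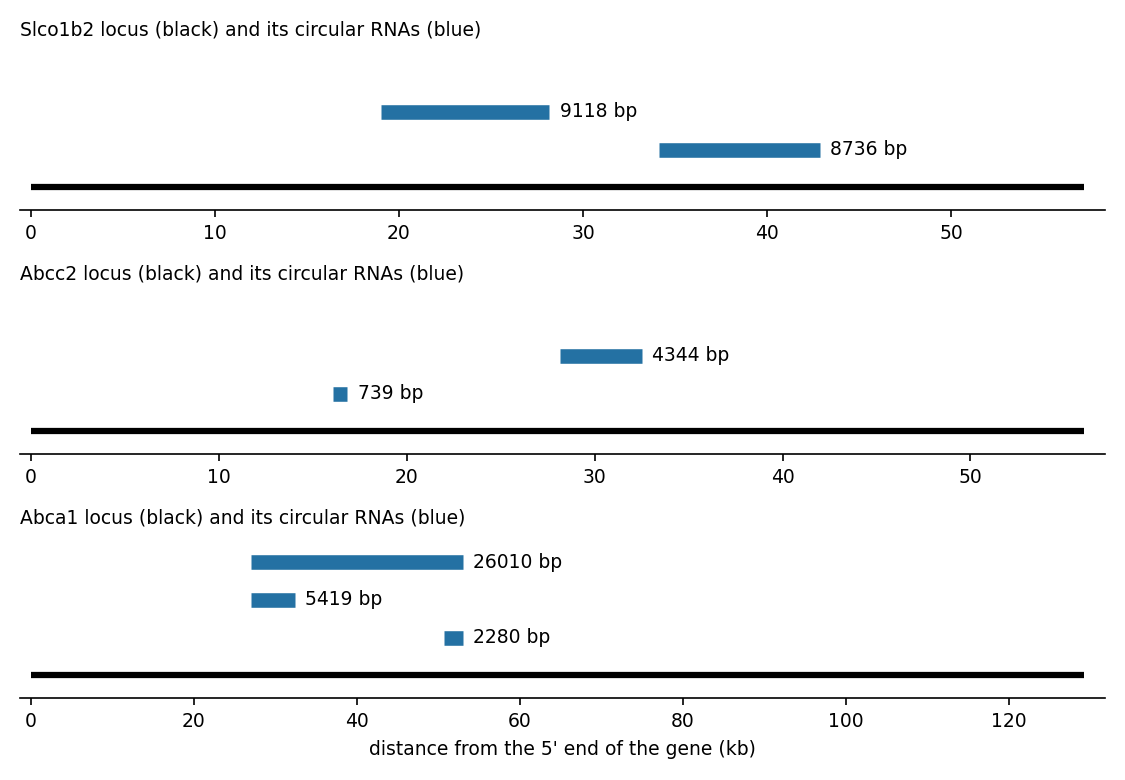
Position of the 7 circular RNAs (blue bars, labelled by span) in their host genes (black), in kb from the 5′ end of each gene. The Slco1b2 and Abcc2 pairs are apart, while the longest Abca1 circle shares one end with each of the shorter ones.

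The Abca1 circles are nested. The 26010 bp circle has the same left end as the 2280 bp circle and the same right end as the 5419 bp circle, and the shorter pair is separated by 18311 bp. One splice site therefore served more than 1 back-splice at each end of this interval. Such sharing was not rare in the table, where 63 of 434 circular RNAs (14.5%) shared an end with another one. Abca1 is 1 of 11 hosts with 3 or more listed circles, and Slco1b2 and Abcc2 are among the 44 with 2 or more, of 374 hosts in all.

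All 7 circles were scarce. Values are CPM, back-splice reads scaled to a library total set by the authors, and each is a whole multiple of the value of 1 read; a read counts for its junction, so the span of the circle does not enter. The members held 295 of the 25803 reads recovered over 18 libraries, 8 to 34 per library. The most abundant by mean CPM was the 739 bp Abcc2 circle at 0.535 ± 0.616 CPM (SD, n = 18), which ranked 109 of 434. The 2280 bp Abca1 circle stood at 0.344 ± 0.376 CPM, the 5419 bp one at 0.338 ± 0.37, the 4344 bp Abcc2 circle at 0.318 ± 0.297, the 9118 bp Slco1b2 circle at 0.308 ± 0.67 and the 8736 bp one at 0.302 ± 0.37 (SD, n = 18 each). The 26010 bp Abca1 circle was lowest, at 0.168 ± 0.261 CPM (SD, n = 18), rank 364. Neighbours in this order differed by less than their SD. The median over the table was 0.302 CPM.

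Library facts bear on every value. Reads over the whole table ran from 900 (control 3) to 2840 (control 4) per library and summed CPM from 40.4 to 550 in these same livers. Where 0 is listed, a level worth up to 3 reads is within counting error; this limit is lowest in control 3 (0.135 CPM) and highest in control 2 (0.918 CPM). Controls 2, 3 and 4 have sample numbers of a later deposit than the remaining 15, and among them are the highest and lowest summed CPM, so differences from control are also given with controls 1, 5 and 8 alone. Over all 434 circular RNAs the median log2 difference was −0.28 for CCl4 minus control, 0.23 for CCl4+PZH minus CCl4 and 0.02 for CCl4+PZH minus control; scaled to each library's own table reads these medians were −0.03, 0.03 and 0.01. None of the 14 hepatocyte marker genes listed for a check of the tissue hosts a circular RNA in this table, so the liver label could not be checked that way.

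In Slco1b2, the uptake carrier, both circles had their lowest mean in CCl4 livers, under CPM and under scaling to table reads alike. Neither passed the test. The 8736 bp circle was present in 6 of 6 controls, with a lowest value of 0.18 CPM (control 3), a median of 0.543 and a highest of 1.22 (control 2). In CCl4 livers it was listed at 0 in 4 of 6, with 0.143 CPM in CCl4 1 and 0.262 CPM in CCl4 7. In CCl4+PZH livers it was also at 0 in 4 of 6, and CCl4+PZH 3 stood at 0.588 CPM and CCl4+PZH 7 at 0.754 CPM. These values rest on 2 to 10 reads in each control, up to 3 in a CCl4 liver and up to 5 in a CCl4+PZH liver. The groups overlapped: CCl4 7 lay above control 3.

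The 8736 bp circle averaged 0.616 ± 0.374 CPM over controls, 0.0676 ± 0.111 over CCl4 and 0.224 ± 0.35 over CCl4+PZH livers (SD, n = 6 each). On the log2(CPM + 0.137) scale, which understates the change of low values, the difference of CCl4 from control was −1.88 (SE 0.67, 95% interval −3.19 to −0.56). Relative to the table's median this was −1.59. Its unadjusted p of 0.0051 ranked 11 of 434, and limma with Benjamini-Hochberg adjustment over all 434 gave an adjusted p of 0.201, with 0.0874 to 0.427 over 31 alternatives. With first-deposit controls only the difference was −2.03 (limma adjusted p = 0.239). By edgeR on the recovered reads the adjusted p was 0.401 and by DESeq2 0.306.

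The 9118 bp Slco1b2 circle was present in 5 of 6 controls, at 0 in control 3, with a median of 0.258 CPM and a highest value of 2.9 CPM in control 4. Among CCl4 livers it was present in CCl4 7 only, at 0.35 CPM on 4 reads. Among CCl4+PZH livers it was present in 4 of 6, with a median of 0.183 CPM and a highest of 0.603 in CCl4+PZH 7. Control 4 had the most back-splice reads over the table, but its library total was small. Its value of 1 read, 0.194 CPM, was the largest after that of control 2. Control 4 held 15 of the 23 control reads of this circle. The control mean was 0.655 ± 1.11 CPM (SD, n = 6) with it and 0.205 ± 0.121 CPM (SD, n = 5) without it, against 0.0583 ± 0.143 over CCl4 and 0.211 ± 0.224 over CCl4+PZH livers (SD, n = 6 each). The CCl4 groups and controls overlapped.

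The limma difference of the 9118 bp circle between CCl4 and control was −1.45 (SE 0.63, 95% interval −2.70 to −0.21; adjusted p = 0.384), or −1.17 relative to the table's median. Without control 4 it was −0.91 and with first-deposit controls −1.15 (limma adjusted p = 0.658). CCl4+PZH minus CCl4 gave 0.79 for this circle (SE 0.63, interval −0.46 to 2.03; limma adjusted p = 0.851) and 0.42 for the 8736 bp circle (SE 0.67, interval −0.89 to 1.74; limma adjusted p = 0.969). Both intervals hold 0. Without CCl4+PZH 7, which had the highest value of both circles in its group, these differences were 0.52 and 0.05, the lowest with any 1 library left out. CCl4+PZH minus control gave −0.67 (interval −1.91 to 0.58; limma adjusted p = 0.882) and −1.45 (interval −2.77 to −0.14; limma adjusted p = 0.763) in the same order. With first-deposit controls these were −0.37 and −1.61 (limma adjusted p = 0.978 and 0.586), and without control 4 the 9118 bp circle stood at −0.12. The comparisons share libraries and are not independent of each other.

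Summed over both circles, Slco1b2 gave reads in 6 of 6 controls, 2 of 6 CCl4 and 5 of 6 CCl4+PZH livers. Per 1000 back-splice reads of the table, a scale that removes the library total, controls averaged 5.41 ± 2.22 (3.27 to 9.5), CCl4 livers 0.918 ± 1.89 (0 to 4.73) and CCl4+PZH livers 2.08 ± 2.16 (0 to 6.16; SD, n = 6 each). CCl4 7, the deepest CCl4 library by reads, was the only CCl4 liver inside the control range and held 7 of the group's 8 Slco1b2 reads. A sum over chosen circles was given no test.

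Circular RNAs of macrophage genes had a higher median in CCl4 livers, the group in which the Slco1b2 circles averaged lowest. Of 8 listed macrophage markers, Adgre1 and Mertk host 4 circles and the other 6 markers host none in the table. Their summed level ran from 0 to 2.71 CPM over controls (median 0.764), from 0.368 to 4.66 CPM over CCl4 livers (median 1.85) and from 0.68 to 3.02 CPM over CCl4+PZH livers (median 1.41). Per 1000 table reads, the scale of the Slco1b2 sums, the medians were 2.82, 11.2 and 6.01. Of 7 lymphocyte markers only Ikzf1 has a circle, at 0 to 0.968 CPM over controls, 0 to 1.05 over CCl4 and 0.343 to 1.51 over CCl4+PZH livers, with medians of 0.0816, 0.505 and 0.538 CPM. Of 9 genes listed as stellate or matrix markers only Mmp15 has a circle, at 0 to 0.918, 0 to 0.978 and 0.291 to 1.01 CPM. Its medians were 0.119, 0.292 and 0.516 CPM. The listed collagen genes, Acta2, Lrat and Pdgfrb host none, so these values are not read as a measure of stellate cells. Endothelial, cholangiocyte and red blood cell markers have none. Their part in the Slco1b2 values was not tested.

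**Figure D2:**
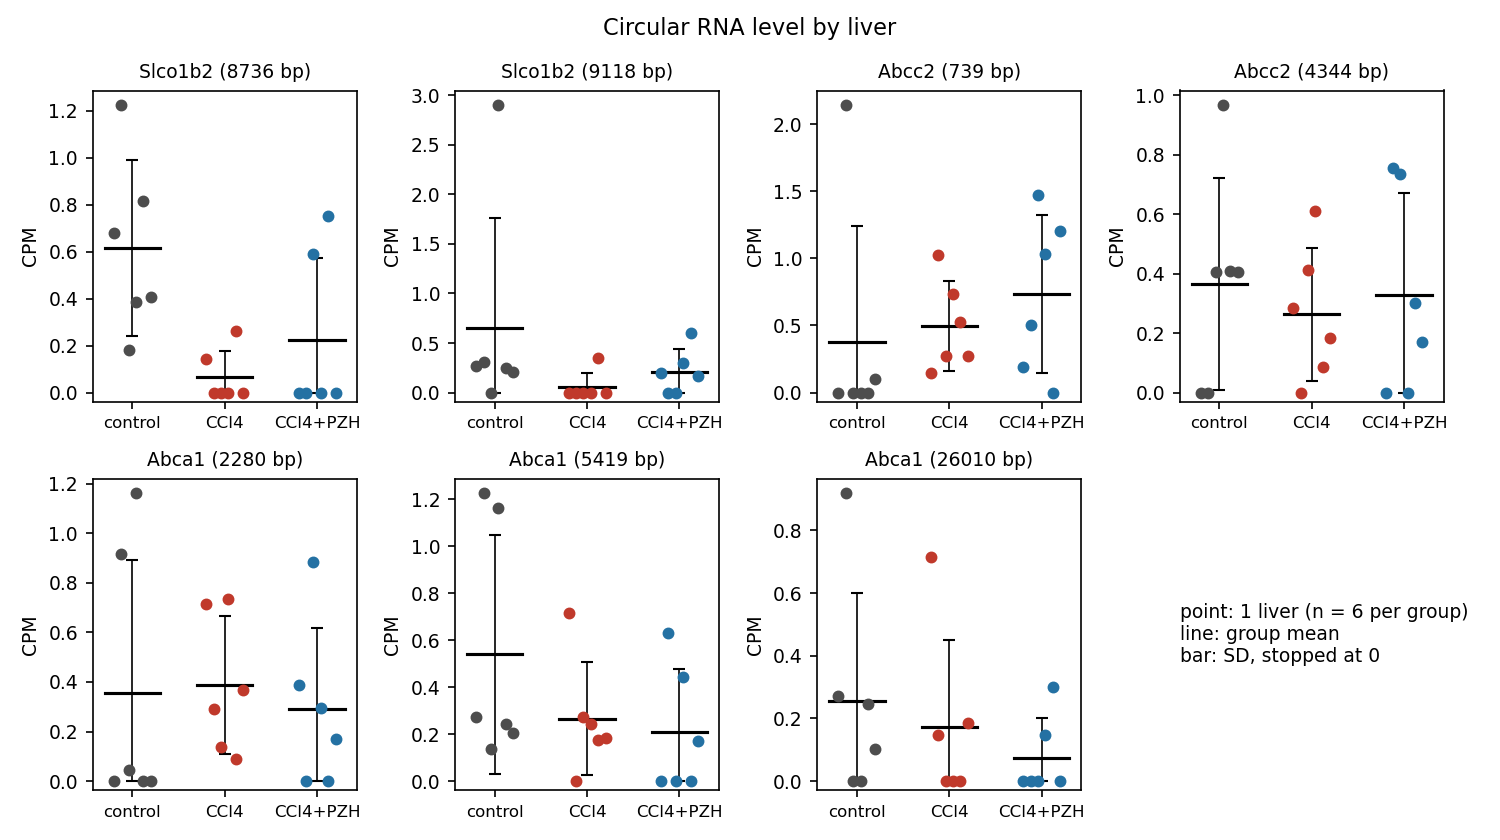
CPM of each of the 7 circular RNAs, named by host and span, in every liver (points), with group mean (line) and SD (bar, stopped at 0), n = 6 per group; the vertical axes differ. Points at 0 prevail for Slco1b2 in CCl4 livers, and single controls set the highest values of the 9118 bp Slco1b2 circle (2.9 CPM) and the 739 bp Abcc2 circle (2.14 CPM).

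Abcc2, the canalicular pump, had circles whose means differed in opposite directions between control and CCl4 livers, each by less than its SD. The 2 circles were not compared with each other by a test. The 739 bp circle was present in 2 of 6 controls, at 2.14 CPM in control 2 and 0.102 CPM in control 8. In CCl4 livers it was present in 6 of 6, from 0.143 to 1.02 CPM with a median of 0.4. In CCl4+PZH livers it was present in 5 of 6, at 0 in CCl4+PZH 7 and otherwise up to 1.47 CPM, with a median of 0.768. Control 2, whose value of 1 read is the largest of all libraries, exceeded every other liver, and the other 5 controls lay below all 6 CCl4 livers. That separation leaves out control 2 after its value was seen, and how often the table separates so was not counted. It rests on 1 read in control 8 against 1 read in CCl4 1, at 0.143 CPM. Counting limits of controls at 0 reach 0.581 CPM (control 4), inside the CCl4 range, though that of control 3 (0.135 CPM) lies below it.

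The 739 bp circle averaged 0.374 ± 0.867 CPM over controls, 0.496 ± 0.334 over CCl4 and 0.734 ± 0.589 over CCl4+PZH livers (SD, n = 6 each). Without control 2 the control mean was 0.0203 ± 0.0455 CPM (SD, n = 5). The difference of CCl4 from control was 1.23 (SE 0.70, 95% interval −0.15 to 2.61; limma adjusted p = 0.605), or 1.52 relative to the table's median. With first-deposit controls it was 1.77 (limma adjusted p = 0.531), and scaled to table reads 1.66 (limma adjusted p = 0.235, the lowest of 32 alternatives). CCl4+PZH minus control gave 1.43 (SE 0.70, interval 0.05 to 2.81; limma adjusted p = 0.763), and 1.98 with first-deposit controls (limma adjusted p = 0.5). CCl4+PZH minus CCl4 gave 0.20 (interval −1.18 to 1.58; limma adjusted p = 0.992), and −0.17 when scaled to table reads.

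The 4344 bp Abcc2 circle was present in 4 of 6 controls, 5 of 6 CCl4 and 4 of 6 CCl4+PZH livers. Medians were 0.405, 0.235 and 0.237 CPM, with highest values of 0.968, 0.611 and 0.754 CPM. Means were 0.364 ± 0.356, 0.263 ± 0.224 and 0.327 ± 0.343 CPM (SD, n = 6 each), so the groups differed by less than their spread. It was at 0 in control 2, where the 739 bp circle was highest, and at 0.404 CPM on 9 reads in control 3, where the 739 bp circle was at 0. The pair was detected together in 9 of 18 livers, one without the other in 4 each, and neither in 1. The limma differences were −0.16 for CCl4 minus control (SE 0.69, interval −1.52 to 1.20; adjusted p = 0.971), 0.03 for CCl4+PZH minus CCl4 (interval −1.32 to 1.39; adjusted p = 0.992) and −0.13 for CCl4+PZH minus control (interval −1.48 to 1.23; adjusted p = 0.988). With first-deposit controls the differences from control were 0.0096 and 0.04.

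Abca1, the cholesterol exporter, had no circle that passed the test in any comparison. The 2 shorter circles were detected together in 10 of 18 livers, the 5419 bp one alone of these in 4 and the 2280 bp one in 3. The 2280 bp circle was present in 6 of 6 CCl4 livers, from 0.0874 to 0.734 CPM with a median of 0.33. In CCl4+PZH livers it was present in 4 of 6, with a median of 0.234 and a highest value of 0.882 CPM. Of the first-deposit controls, 1, 5 and 8 were at 0, with limits of 3 reads at 0.408, 0.245 and 0.305 CPM. Controls 2, 3 and 4 of the later deposit stood at 0.918, 0.0449 and 1.16 CPM. Control 3 rests on 1 read, below its own limit of 0.135 CPM. How many circles of the table divide in this way was not counted. The deposit and the mouse cannot be told apart here, since the later deposit holds controls only.

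The 2280 bp circle averaged 0.354 ± 0.537 CPM over controls, 0.389 ± 0.279 over CCl4 and 0.29 ± 0.329 over CCl4+PZH livers (SD, n = 6 each). The limma difference of CCl4 from control was 0.66 (SE 0.69, interval −0.69 to 2.01; adjusted p = 0.846). With first-deposit controls it was 1.76 (limma adjusted p = 0.487). CCl4+PZH minus CCl4 gave −0.48 (interval −1.83 to 0.87; limma adjusted p = 0.954). CCl4+PZH minus control gave 0.18 (interval −1.18 to 1.53; limma adjusted p = 0.988) with all controls, 1.28 with first-deposit controls (limma adjusted p = 0.729) and −0.0424 by edgeR with the implied totals.

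The 5419 bp Abca1 circle was the only circle of this host present in all controls, from 0.135 CPM (control 3) to 1.22 CPM (control 2) with a median of 0.258. It was present in 5 of 6 CCl4 livers, at most 0.715 CPM in CCl4 1 with a median of 0.214, and in 3 of 6 CCl4+PZH livers, at most 0.629 CPM in CCl4+PZH 2. Means were 0.54 ± 0.508, 0.265 ± 0.24 and 0.207 ± 0.27 CPM (SD, n = 6 each). The limma difference from control was −0.63 in CCl4 (SE 0.69, interval −1.99 to 0.72; adjusted p = 0.855) and −1.03 in CCl4+PZH livers (SE 0.69, interval −2.39 to 0.33; adjusted p = 0.844). With first-deposit controls, which stood at 0.24 ± 0.0346 CPM (SD, n = 3), these were −0.10 and −0.50 (limma adjusted p = 0.985 and 0.972). CCl4+PZH minus CCl4 gave −0.40 (interval −1.76 to 0.96; limma adjusted p = 0.969).

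The 26010 bp Abca1 circle, which joins the outer ends of the shorter ones, was present in 4 of 6 controls, 3 of 6 CCl4 and 2 of 6 CCl4+PZH livers on 20 reads in all. Its highest values were those of control 2 (0.918 CPM), CCl4 1 (0.715 CPM) and CCl4+PZH 7 (0.301 CPM). Means were 0.256 ± 0.345, 0.174 ± 0.277 and 0.0748 ± 0.126 CPM (SD, n = 6 each), and without control 2 the control mean was 0.124 ± 0.13 (SD, n = 5). The limma differences were −0.32 (interval −1.36 to 0.72; adjusted p = 0.862) for CCl4 minus control, −0.36 (interval −1.40 to 0.68; adjusted p = 0.954) for CCl4+PZH minus CCl4 and −0.68 (interval −1.72 to 0.36; adjusted p = 0.882) for CCl4+PZH minus control. With first-deposit controls the differences from control were −0.47 and −0.83 (limma adjusted p = 0.924 and 0.778). In CCl4 1 all 3 Abca1 circles stood at 0.715 CPM, 5 reads each. The long circle was detected with the 5419 bp circle in 7 livers and with the 2280 bp circle in 5.

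**Figure D3:**
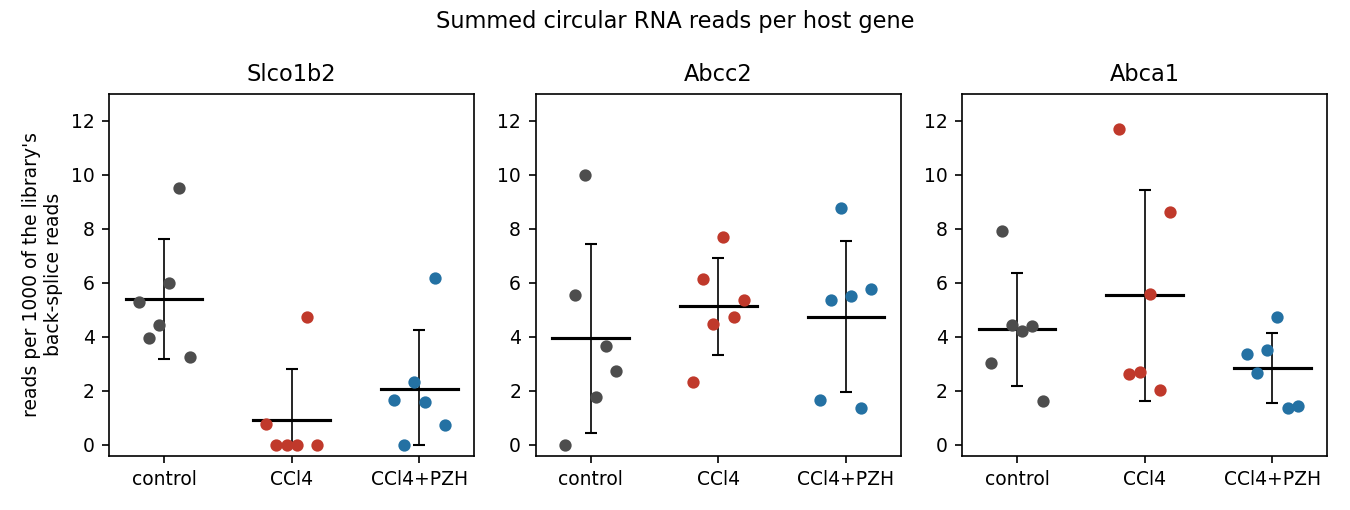
Back-splice reads summed over the circles of each host, per 1000 reads of the library's 434 listed circular RNAs, in every liver (points) with group mean (line) and SD (bar, stopped at 0), n = 6 per group. Slco1b2 averages 5.41 over controls, 0.918 over CCl4 and 2.08 over CCl4+PZH livers. The ranges of the 3 groups overlap for each host.

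On the same scale Abcc2 summed to 3.95 ± 3.5 reads per 1000 over controls, 5.12 ± 1.79 over CCl4 and 4.74 ± 2.8 over CCl4+PZH livers (SD, n = 6 each). It was at 0 in control 1 and highest in control 3, on 9 reads. Abca1 summed to 4.27 ± 2.09, 5.54 ± 3.9 and 2.84 ± 1.29 reads per 1000 (SD, n = 6 each), with the highest value, 11.7, in CCl4 1. Abca1 was the only host of the 3 with reads in all 18 livers.

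Counted together, 0 of the 7 circles passed the threshold of adjusted p 0.05 by limma in CCl4 minus control, where 3 of 434 (0.691%) did. None passed in CCl4+PZH minus CCl4, where 0.0% of the table did, or in CCl4+PZH minus control, where 1 of 434 (0.23%) did. By edgeR and by DESeq2 on the recovered reads 0 of 7 passed the adjusted threshold in each comparison as well. Beside them stood 1.15%, 0.0% and 0.461% of the table by edgeR and 0.461%, 0.0% and 0.23% by DESeq2. With an unadjusted p under 0.05 the counts among the 7 were 1, 0 and 0 by edgeR and 1, 0 and 1 by DESeq2. The table's shares at that unadjusted level were not computed for these tools, so these counts have no background beside them. At an unadjusted limma p under 0.05, both Slco1b2 circles were below control in CCl4 livers, beside 36 of 434 (8.29%) in either direction. The 8736 bp Slco1b2 circle (lower) and the 739 bp Abcc2 circle (higher) did so in CCl4+PZH minus control, beside 22 of 434 (5.07%). None did between CCl4+PZH and CCl4, beside 24 of 434 (5.53%). No circle had groups that did not overlap, as 0.691%, 0.23% and 0.461% of the table did in these 3 comparisons.

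Presence, a value above 0, did not pass Fisher's exact test with adjustment over all 434 for any of the 7 (adjusted p = 1 for each). With 6 livers per group, even a complete split could pass this adjustment only if many other circles split so too. The result therefore cannot decide whether presence differed. Among the 7 the smallest exact two-sided p was 0.0606, for 6 of 6 against 2 of 6 livers. It was reached by the 8736 bp Slco1b2 circle, more often present in controls than in either other group, and by the 739 bp Abcc2 circle, more often present in CCl4 than in control livers. Every circle in the table was above 0 in 9 or more of the 18 libraries, so one found in fewer livers was not listed.

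The direction of the differences was mixed. In CCl4 minus control 5 of 7 were negative with a median of −0.32, beside 62.9% of the table and a median of −0.28. By edgeR on the recovered reads 4 of 7 were, beside 52.5% of the table. For CCl4+PZH minus CCl4 3 of 7 were negative with a median of 0.03 (30.2% and 0.23 over the table). Scaled to table reads 5 of 7 were negative with a median of −0.34 (48.6% and 0.03 over the table). Against control, 5 of 7 were negative in CCl4+PZH livers with a median of −0.67 (47.7% and 0.02 over the table). By edgeR with the implied totals, a setting chosen after seeing the data, 6 of 7 were, beside 54.4% of the table. Both Slco1b2 circles were negative in CCl4 minus control and positive in CCl4+PZH minus CCl4 under each of the 5 scalings and tools compared. The comparisons share the CCl4 libraries, so a low CCl4 group alone gives opposite signs, and the scalings and tools share the reads. Without CCl4+PZH 7 the CCl4+PZH minus CCl4 difference of the 8736 bp circle was 0.05. The share of the table with these signs was not counted.

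**Figure D4:**
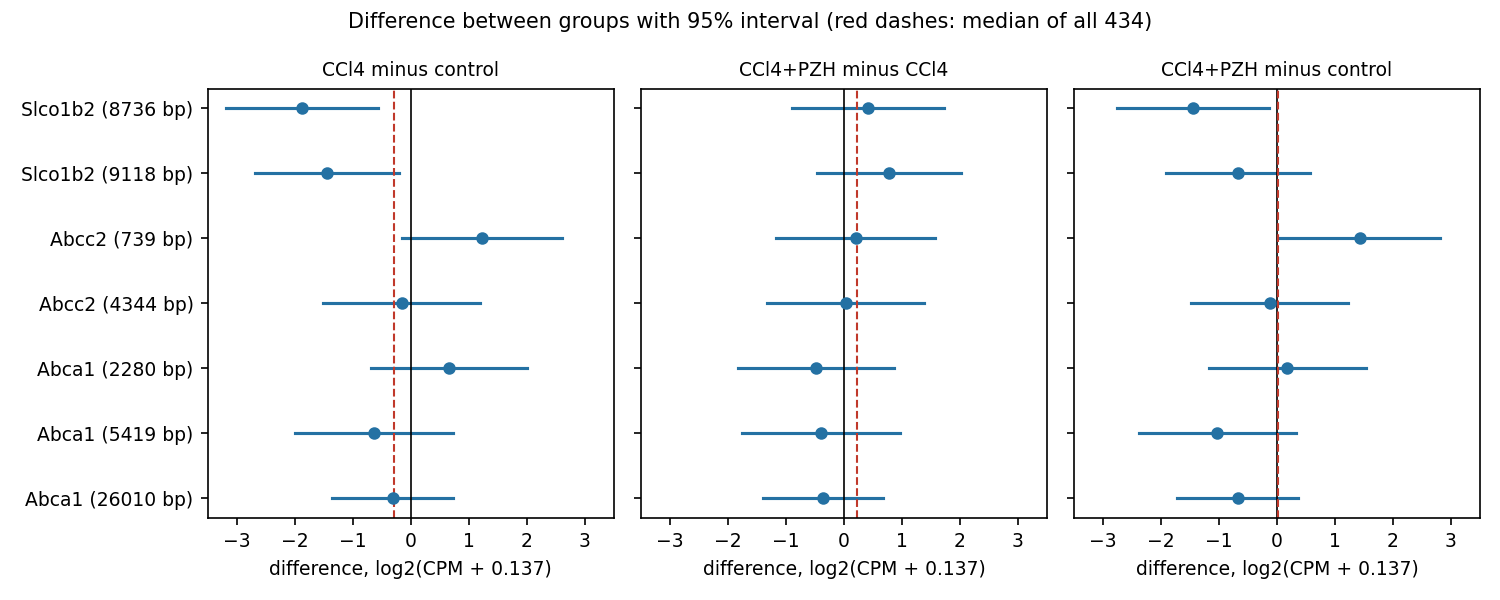
Differences of the 7 circular RNAs on the log2(CPM + 0.137) scale in the 3 comparisons (points) with 95% limma intervals (lines); red dashes mark the median of all 434. The Slco1b2 circles lie lowest in CCl4 minus control, at −1.88 and −1.45, and each interval in CCl4+PZH minus CCl4 includes 0.

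Genes that work with these transporters were mostly missing from the table. Of 72 genes of hepatocyte uptake and export, bile acid synthesis, cholesterol handling and their regulators, 4 host a listed circle, 5 circles in all. They are Cyp2c70, which makes muricholic acids in mice, Scp2, a sterol carrier of peroxisomes with thiolase activity in bile acid synthesis, Soat2, which esterifies cholesterol, and Nr1h4, the bile acid receptor FXR. No other uptake or export carrier of the list, Abcb11 and Slc10a1 included, hosts one. None of the 5 passed in any comparison by limma; 4 of the 5 were below control in CCl4 livers with a median of −0.44, beside 62.9% of the table and its median of −0.28. The count was also 4 under the other 4 scalings and tools, beside 51.8% to 69.8% of the table. The smallest p was that of the Scp2 circle at 108055439 to 108063988 of chromosome 4, with 1.55 ± 1.56 CPM over controls, 0.217 ± 0.338 over CCl4 and 0.37 ± 0.518 over CCl4+PZH livers (SD, n = 6 each). Its limma differences from control were −1.84 (SE 0.70, adjusted p = 0.256) and −1.46 (SE 0.70, adjusted p = 0.763). Between CCl4+PZH and CCl4 the smallest p was that of the other Scp2 circle, at 108102291 to 108112284, with 0.43 (SE 0.67, limma adjusted p = 0.96).

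Patterns most like that of the circle of highest mean CPM in each host were ranked by Spearman's rho over 18 livers on values scaled to table reads. For the 9118 bp Slco1b2 circle these were circles of Camk2d (rho 0.63), Nedd4l (0.59) and Them7 (0.58). For the 739 bp Abcc2 circle they were those of Mtf2 (0.64), Vrk2 (0.58) and R3hdm2 (0.57), and for the 2280 bp Abca1 circle those of Uty (0.61), Ubl5 (0.56) and Fam169b (0.54). Both circles of such a pair were above 0 in 7 to 11 livers. Over every listed circle outside the 3 hosts the median rho was 0.013 for the Slco1b2, 0.003 for the Abcc2 and −0.032 for the Abca1 circle. The points share libraries and zeros at low depth, and the values are descriptions of the 3 highest of that whole ranking. Shared regulation was not tested.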

How the data were processed

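The authors deposited CPM values (back-splice reads of each circular RNA scaled to a library total not given in the sources used here) for 18 libraries. The build was GRCm38 and the aligners were Bowtie2 2.5.1 and HISAT2 2.2.1, per the submitters' processing notes, which also name StringTie 2.1.5, cutadapt 4.2 and FastQC 0.11.9; the circular RNA caller is not given in the sources used here. Dividing by the value of 1 read gave whole reads: 7812 of 7812 values (100%) lay within 0.1 of a whole number. Most values of the 7 circles rest on a few reads, which limits their precision.

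Hosts were assigned with RefSeq gene positions of GRCm38.p6. Values were log2 transformed after adding 0.137 CPM, which is the median, across libraries, of each library's lowest value above 0. The test was limma 3.58.1 (R 4.3.3), in 1 fit of 3 group means over all 18 libraries, with a trend of variance on level. All p-values are two-sided, adjusted by Benjamini-Hochberg over 434, threshold 0.05. Alternatives were other pseudocounts, a filter, table-read scaling, counts recovered from the CPM tested with DESeq2 1.42.0 or edgeR 4.0.16, other limma settings, a replicate block, an exact permutation test, first-deposit controls and each library left out. Those chosen after seeing the data were edgeR with the implied totals, and controls 2 and 4 left out together. The scripts were tested on simulated data. Every circle in the 3 loci is named; of the list of related genes, the circle of smallest p per comparison. The members and lists were chosen with earlier results of these data known. Python 3.11.15 did the rest.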

Additional observations from a re-analysis of the deposited data

Results flagged for a closer look

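A value is given here where 1 mouse of a group of 6 stood apart from the others by more than the 95% limit of Dixon's test (gap over range above 0.625). Of 30 groups of values examined, over the 7 circles and the 3 gene sums, 6 had such a mouse, where chance gives about 1 in 20. Values with many zeros meet this limit easily.

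For the 9118 bp Slco1b2 circle, control 4 stood at 2.9 CPM against 0.306 CPM at most in the other controls, and CCl4 7 at 0.35 CPM against 0 in the other CCl4 livers. For the sum over both Slco1b2 circles CCl4 7 stood at 0.612 CPM against 0.143 CPM at most. For the 739 bp Abcc2 circle control 2 stood at 2.14 CPM against 0.102 CPM at most. For the 26010 bp Abca1 circle control 2 stood at 0.918 CPM against 0.272 CPM at most in controls, and CCl4 1 at 0.715 CPM against 0.184 CPM at most in CCl4 livers.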

How the results depend on the processing

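Over 32 alternatives 0 of the 7 circles passed the threshold in any comparison, and 631 of 663 recomputed differences kept their direction. Part of these could not change. Leaving out libraries of the group not compared returns the main difference. So do the fit without the variance trend, the fit of only the groups compared and the exact permutation test. The 631 is therefore not a count of separate checks. The 32 that changed direction belong to 8 of 21 results, all with a difference of at most 0.63 in size. Only 4 of the 7 circles pass a filter of non-zero values in 12 libraries, so the other 3 have no value there.

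For CCl4 minus control, edgeR with TMM gave 0.0282 for the 26010 bp Abca1 circle, leaving out controls 2 and 4 gave 0.013 for the 5419 bp one, and for the 4344 bp Abcc2 circle the replicate block gave 0.0321 and first-deposit controls 0.0096. With single libraries left out, the 26010 bp Abca1 circle ran from −0.68 to 0.0469 and the 4344 bp Abcc2 circle from −0.46 to 0.14. For CCl4+PZH minus CCl4, the 739 bp Abcc2 circle stood at −0.17 scaled to table reads and −0.18 with the block, and the 4344 bp one at −0.0701 (pseudocount 0.05), −0.34 (table reads), −0.16 (edgeR with TMM) and −0.18 (DESeq2). Left-out libraries gave −0.0623 to 0.65 and −0.23 to 0.31 for these, and −0.61 to 0.0005 for the 26010 bp Abca1 circle. For CCl4+PZH minus control, the 2280 bp Abca1 circle stood at −0.0424 by edgeR with implied totals (−0.15 to 0.61 with libraries left out), and the 4344 bp Abcc2 circle at 0.62 with the block and 0.0437 with first-deposit controls (−0.42 to 0.18). Differences that kept their direction also moved with single libraries left out. In CCl4 minus control they ran from −1.80 to −0.91 (9118 bp Slco1b2), −2.10 to −1.67 (8736 bp Slco1b2), 1.02 to 1.88 (739 bp Abcc2), 0.44 to 1.09 (2280 bp Abca1) and −0.89 to −0.36 (5419 bp Abca1). In CCl4+PZH minus CCl4 they ran from 0.52 to 1.09 and 0.05 to 0.65 for the Slco1b2 circles, −0.80 to −0.22 for the 2280 bp and −0.70 to −0.14 for the 5419 bp Abca1 circle. In CCl4+PZH minus control they ran from −1.02 to −0.12 and −1.83 to −1.25 for the Slco1b2 circles, 1.17 to 2.08 for the 739 bp Abcc2 circle, and −1.34 to −0.77 and −0.92 to −0.32 for the 5419 and 26010 bp Abca1 circles. The cause was not tested.

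Of related hosts in CCl4 minus control, Scp2 (108102291) gave 0.0026 with array weights (−0.56 to 0.17 with libraries left out) and Slc8b1 0.0007 with first-deposit controls. Between CCl4+PZH and control Scp2 (108102291) gave −0.24 by edgeR with implied totals (−0.13 to 0.60) and Slc33a1 0.0542 with the block (−0.65 to 0.012). For CCl4+PZH minus CCl4 Scp2 (108055439) ran from −0.0257 to 0.74.

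Calls over the whole table in CCl4 minus control, 3 in all, numbered 1 with pseudocount 0.5, the filter, the replicate block or edgeR with implied totals, 5 with table-read scaling or edgeR with TMM, 0 by exact permutation and 1 to 6 with libraries left out (6 without control 3, 2 without control 2 or 5, 3 without CCl4 4 or 5 or any CCl4+PZH library, and 1 without any other). Between CCl4+PZH and control, 1 in all, they numbered 0 with the filter or exact permutation, 2 by edgeR with either total or without controls 2 and 4, 3 with array weights and 1 to 3 with libraries left out (3 without control 2). Between CCl4+PZH and CCl4 they stayed at 0 with each library left out. Pairing was examined on log2 values after the group mean of each circle was subtracted. These deviations correlated at −0.15 to 0.08 in the 13 pairs of libraries with the same replicate number, none over 0.1. By the same measure 1 of 18 libraries correlated best with its own number, so the numbers were not taken as pairs.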

Other observations

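Among other carriers, 13 hosts whose symbols begin with Slc, Abc or Atp have 1 listed circle each, and 0 of the 13 passed the limma threshold in any comparison. In CCl4 minus control 11 of 13 were negative with a median of −0.43, beside 62.9% of the table; scaled to table reads 10 were, beside 51.8%. For CCl4+PZH minus CCl4 13 of 13 were positive with a median of 0.43, beside 69.8% of the table; scaled to table reads 10 were, beside 51.4%, with a median of 0.23. These comparisons share the CCl4 libraries.

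The smallest p in CCl4 minus control was that of Slc33a1, which carries acetyl-CoA into the endoplasmic reticulum. It was present in 5 of 6 controls at 0.502 ± 0.49 CPM, in 1 of 6 CCl4 livers at 0.0238 ± 0.0584 CPM on 1 read, and in 4 of 6 CCl4+PZH livers at 0.427 ± 0.476 CPM (SD, n = 6 each). Its limma difference was −1.63 (SE 0.66, adjusted p = 0.296) and that of CCl4+PZH minus CCl4 1.34 (SE 0.66, adjusted p = 0.804). Between CCl4+PZH and CCl4 the smallest p was that of Slc35d1, a nucleotide sugar carrier, with 0.0600 ± 0.068 CPM in CCl4 and 0.481 ± 0.445 CPM in CCl4+PZH livers (SD, n = 6 each; limma 1.35, SE 0.67, adjusted p = 0.804). Against control it was, in CCl4+PZH livers, that of Slc8b1, the mitochondrial sodium and calcium exchanger (0.72, SE 0.66, limma adjusted p = 0.882).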
